A study of Zea mays with 18 samples.

Results

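The transcripts described here are the 200 of the maize ear whose levels differed most among replicate samples of the same kind while their mean level was alike in ear and ear inflorescence. They were chosen by their measured values. Of 76612 identifiers, 27098 had a mean normalized count of at least 50 over the 18 libraries. Of these, 18141 also differed by less than 1 on the log2 scale between the mean of the 9 ear libraries and the mean of the 9 ear inflorescence libraries, and so could have been chosen. The mean of each of the 6 groups was then subtracted from log2(normalized count + 1), and the 200 with the largest standard deviation (SD) of these differences were kept. All 200 entered each limma comparison below, with no further filter on low values.

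The plants were of 1 elite hybrid, NN6306, grown in the field in Illinois in 2012 without any stress treatment. Event 1 and event 2 are independent insertions of the Arabidopsis ATHB17 coding sequence behind a rice actin promoter, and both accumulate a truncated protein, ATHB17Δ113. ATHB17 belongs to the class II homeodomain-leucine zipper (HD-Zip II) transcription factors. Control plants carried no ATHB17 transgene. Ear was collected at the R1 stage (silking) and ear inflorescence at the V16 stage, with 3 biological replicates each of event 1, event 2 and control in both tissues. Nothing at hand says how many plants made up a replicate.

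An ear inflorescence is a set of meristems that lay down spikelets and florets in an ordered way, so organs of several ages lie along 1 young ear. At silking the ear carries mature florets with ovules, and it draws on the plant for water and sugar. Transcripts that answer to temperature, time of day, wounding or the exact stage of the organ can therefore differ among plants of 1 genotype, and RNA handling can add to such differences. A group mean cannot show them, which is why they are described here library by library.

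The counts of a library added up to between 27293941 and 52655576. These totals count assignments, since a read was counted on each transcript it mapped to, up to 10, and so they exceed the number of reads sequenced. For the same reason transcripts with near-identical sequences share reads and cannot be told apart where they do. Event 1 ear inflorescence replicate 1 stood apart from the rest. Its normalized counts added up to 24443888, against 30346120 to 36325155 in the other 8 ear inflorescence libraries, and its 10 largest transcripts held 3.85% of its total, against 4.95% to 6.30% in those 8. Organ markers were read as a check of the tissue labels. The transcript zag2, of a carpel and ovule gene, had 13489 or more normalized counts in each ear library and 3153 to 8793 in the ear inflorescence libraries. The meristem gene ra1 was at 0 in all ear libraries and averaged 5.21 in event 1, 8.45 in event 2 and 6.64 in control ear inflorescence. Not all markers separated the tissues in this way. In event 1, event 2 and control, the meristem gene fea2 averaged 786, 913 and 937 in ear and 817, 838 and 805 in ear inflorescence. The zmm2 transcript GRMZM2G316366, placed on the carpel and ovule list here, averaged 2.52, 5.23 and 4.38 in ear and 10.7, 4.07 and 9.53 in ear inflorescence. The other zmm2 transcript, GRMZM2G492156, averaged 3.39, 0.40 and 0.35 in ear and 3.43, 2.96 and 4.18 in ear inflorescence. Both were at low levels. None of the 17 marker transcripts examined was among the 200. In event 1 ear inflorescence replicate 1, 10 of these 17 were at their lowest of the 9 ear inflorescence libraries and 1 was at its highest. Over all 18141 transcripts that could have been chosen, 38.8% were at their lowest there and 29.3% at their highest. The 7 meristem markers summed to 7834 there, against 11005 to 20139 in the other ear inflorescence libraries, and the 5 carpel and ovule markers to 6662, against 8115 to 17018. The 3 leaf markers (ssu1, pep1, me3) summed to 1555 there and to 2001 to 2805 in the others. The most abundant markers weigh most in these sums, with kn1 at 4436, zag2 at 3153 and me3 at 1277 there. Of the markers summed, ra1 (3.47), bif2 (30.5), ssu1 (265), pep1 (12.5) and both zmm2 transcripts were not at their lowest there. GRMZM2G492156, of zmm2, was the 1 at its highest, with 6.24.

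The SD of the 200 ran from 1.57 to 0.43 on the log2 scale, with a median of 0.47, against a median of 0.20 over all transcripts that could have been chosen. Counting error alone was smaller than this in each of them. The SD was at least 2.32 times, and in the median 4.58 times, the SD expected from the number of reads, against a median of 2.72 times over all transcripts that could have been chosen. The limit of the list cut through a continuous range. The last 3 inside it were GRMZM2G122811, GRMZM2G138029 and GRMZM2G061596 with an SD of 0.432, 0.430 and 0.429, and the first 3 outside it were GRMZM2G001097, GRMZM2G169834 and GRMZM2G141923 with 0.429, 0.429 and 0.429. Low levels were common among the 200. In the lowest eighth of the 18141 transcripts by mean count, 64 were chosen (2.82%), and 5 (0.22%) in the sixth eighth, but the highest eighth held 28 (1.23%), of which 26 belong to pattern A below.

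**Figure D1:**
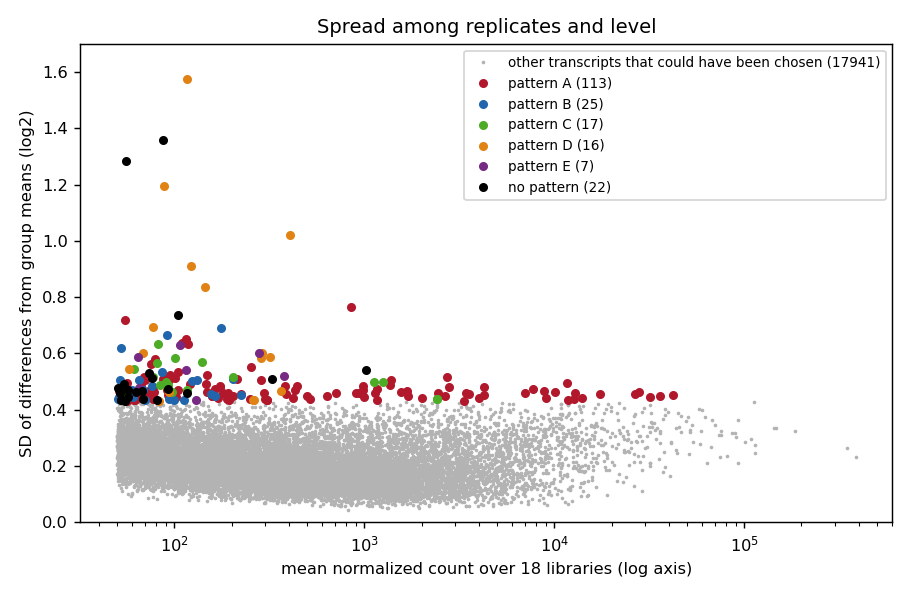
SD of the differences from the 6 group means on the log2 scale (vertical axis) against mean normalized count over 18 libraries (horizontal log axis). Grey points are transcripts that were not chosen and coloured points the 200 that were, by pattern. The 113 transcripts of pattern A reach a mean of 42251 with an SD close to the limit, and the few with an SD over 1 lie between 55.3 and 404.5.

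Which libraries carried the spread was read from the library farthest from its group mean, here called the leading library. Event 1 ear inflorescence replicate 1 led 121 of the 200 transcripts (60.5%), and it led 8512 of all 18141 (46.9%). It lay below its group mean for 115 of the 121 and above it for 6. Over all 18141 transcripts the split was less uneven, with 5399 below and 3113 above. Its share of the summed squared differences was 27.5% for the 200 and 27.2% for all 18141. The difference in that library moved with the level of the transcript: its median was 0.09 in the lowest eighth of the 18141 by mean count and -0.49 in the highest. No other library led more than 13 of the 200. Event 2 ear replicate 2 led 13 (6.50%, against 13.004% of all 18141) and event 2 ear replicate 1 led 11. Event 1 ear replicate 2 led 9. Control ear inflorescence replicate 3 also led 9 (4.50%, against 1.49% of all 18141), each of them from above. Event 1 and event 2 ear inflorescence replicates 3 led none.

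**Figure D2:**
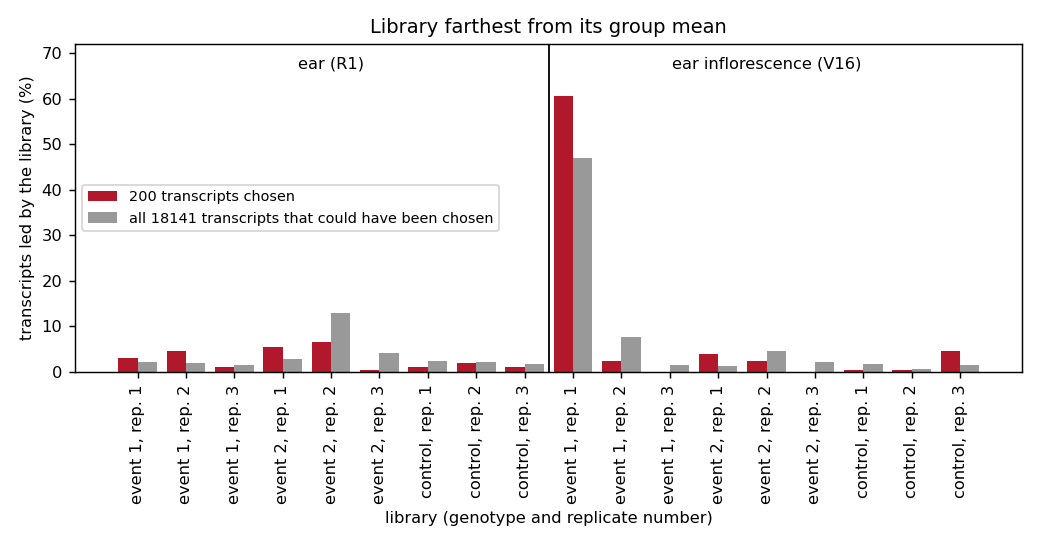
Percent of transcripts for which each library was farthest from its group mean, for the 200 chosen (red bars) and all 18141 that could have been chosen (grey bars). Event 1 ear inflorescence replicate 1 led 60.5% of the chosen and 46.9% of all, and no other library led more than 6.50% of the chosen.

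When that library was left out and the ranking repeated over 17 libraries, 87 of the 200 were kept. Event 2 ear replicate 2 then led the most, 38 of the new 200, and event 2 ear replicate 1 led 27. Shares over all transcripts that could have been chosen were not computed for this ranking. The transcripts with a gene name that entered were AUX32, ARGOS5 (related to an Arabidopsis regulator of organ size), ALDH10A8 (an aldehyde dehydrogenase), TPS9 and 1 named methylase.

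The 200 were sorted by the correlation of their differences across the 18 libraries into 5 patterns of 7 or more transcripts, called A to E, which left 22 outside any of them. The patterns were made from the values that chose the transcripts and describe them only. RefSeq gene records were found for 100 of the 200 (50.0%, against 55.6% of all 18141), and 19 of them carried a gene name. No 2 of the 100 were neighbours in the RefSeq gene order.

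**Figure D3:**
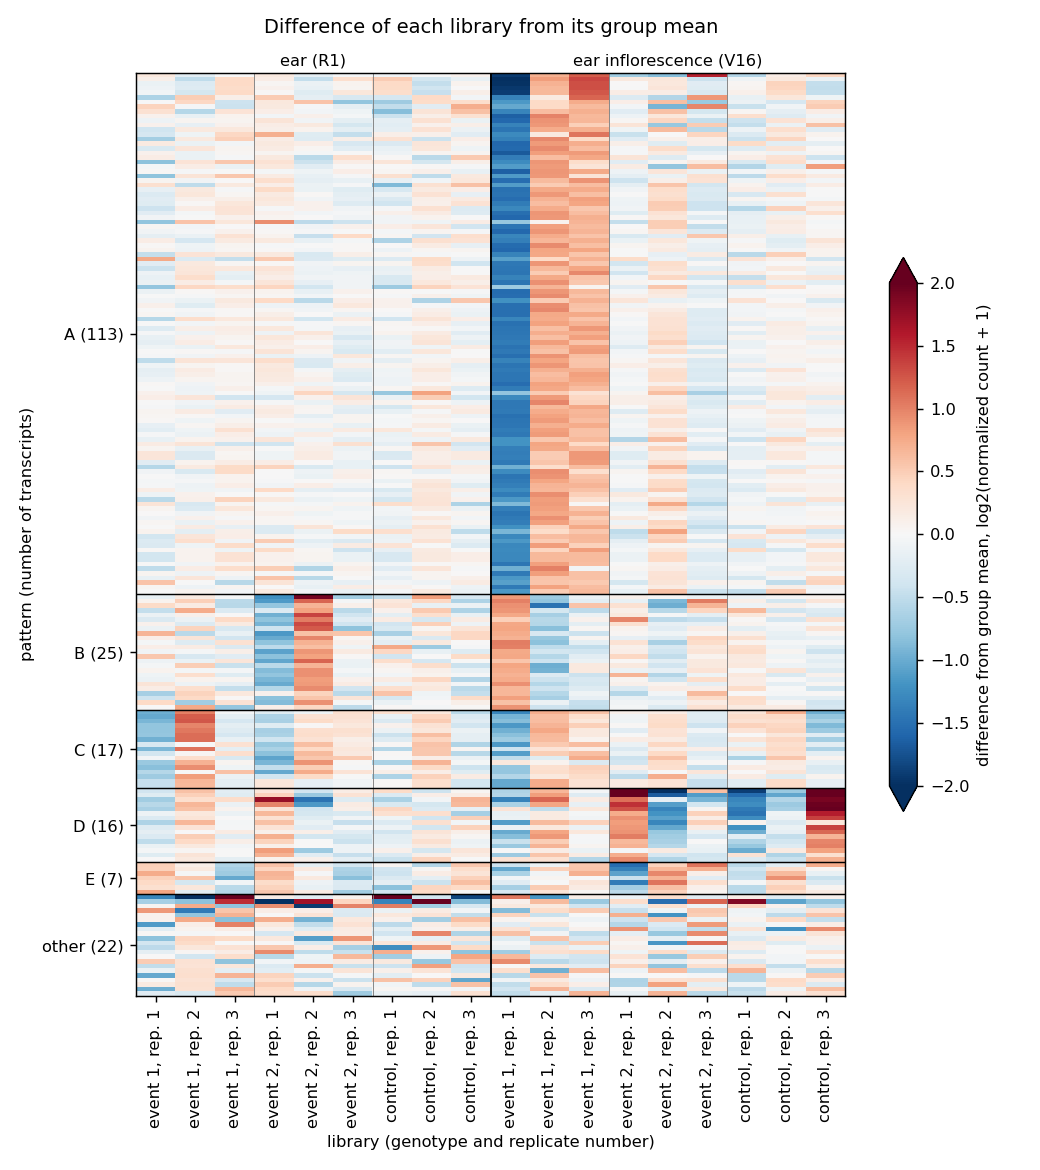
Difference of each library from the mean of its group on the log2(normalized count + 1) scale, for the 200 transcripts (rows, sorted by pattern and then by SD) in 18 libraries (columns). Blue is below and red above the group mean, and colours stop at 2 in either direction. Pattern A is blue in event 1 ear inflorescence replicate 1 and pale in ear, pattern B is split between event 2 ear replicates 1 and 2, and pattern D between replicates of control and of event 2 ear inflorescence.

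Pattern A held 113 transcripts, and its differences lay mainly in 1 group. Their median difference was -1.41 in event 1 ear inflorescence replicate 1 and 0.76 and 0.64 in replicates 2 and 3, which lie above the group mean by construction when 1 library of 3 is low. Outside that group the medians lay between -0.24 and 0.24. The library had the lowest level of all 18 for 111 of the 113. The mean of event 1 replicates 2 and 3 was 4.39 times that of replicate 1 in the median transcript (2.24 to 11.4 times), and the mean of the 6 event 2 and control ear inflorescence libraries was 3.51 times it. Over all 18141 transcripts these ratios had medians of 1.07 and 1.05. Over the 15 libraries of the other 5 groups the 113 had a median SD of 0.22, against 0.16 over all 18141, and leaving that library out of the ranking kept 13 of the 113 in the list.

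Pattern A held 9 transcripts with a gene name. The transcript CaM2 (GRMZM2G067511) encodes calmodulin, the calcium-binding signal protein. It had 1496, 8408 and 6637 normalized counts in event 1 ear inflorescence, 8141, 8426 and 6947 in event 2 and 6585, 5461 and 6875 in control. In ear it had 9068, 8469 and 9328 in event 1, 8009, 8133 and 8260 in event 2 and 9374, 10432 and 8345 in control. The other 17 libraries lay between 5461 and 10432, all above replicate 1 of event 1 ear inflorescence. The ribosomal protein transcript rpl5 (GRMZM5G831780), for a protein of the large ribosomal subunit, had 2181, 11764 and 9255 in event 1 ear inflorescence, 8368, 9250 and 8757 in event 2 and 7692, 8694 and 7616 in control. Its 9 ear libraries ranged from 9833 to 13505. The thioredoxin transcript trh2 (GRMZM2G144653), for an h-type thioredoxin that reduces disulphides in the cytosol, had 3305, 15155 and 13474 in event 1 ear inflorescence, 11969, 15506 and 9445 in event 2 and 9855, 10037 and 9660 in control. In all 3 of these, replicate 1 of event 1 lay below each of the other 8 ear inflorescence libraries.

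TIFY12 (GRMZM2G086920) belongs to the TIFY family, which holds the JAZ repressors of jasmonate signalling. It had 2954, 13598 and 11511 normalized counts in event 1 ear inflorescence, 11510, 16586 and 9803 in event 2 and 10040, 9622 and 9797 in control. The transcript GNAT26 (GRMZM2G137961), of the GCN5-related N-acetyltransferase family, had 574, 3059 and 2476 in event 1 ear inflorescence, 2090, 2064 and 2206 in event 2 and 1863, 2107 and 2056 in control. In both, that library was again below each of the other 8. At low levels the same library was also lowest for BIGE1 (GRMZM2G148937), a transporter of the MATE type that affects embryo size in maize, with 13.9, 36.0 and 43.5 in event 1 ear inflorescence, and for ccr2 (GRMZM2G131836), a cinnamoyl-CoA reductase of lignin synthesis, with 21.5, 69.2 and 67.7. The ccr2 transcript had 45.0, 69.4 and 61.9 in event 2 and 39.3, 26.5 and 51.7 in control, so its low value was close to the lowest control value.

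The m20 transcript (GRMZM2G059102) had the largest SD of pattern A, 0.77. It had 119.9, 746.8 and 1055 normalized counts in event 1 ear inflorescence, 682, 611 and 3216 in event 2 and 484, 805 and 982 in control. Its ear libraries ranged from 631 to 901. It was thus low in event 1 replicate 1 and high in event 2 replicate 3. GRMZM2G589267, with no gene name, had 5.54, 52.1 and 73.7 in event 1 ear inflorescence, 39.5, 40.5 and 25.4 in event 2 and 39.3, 48.0 and 38.2 in control. Its difference of -2.18 in event 1 replicate 1 was the lowest of pattern A.

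Families of the named transcripts were read in the same library. They took in all transcripts with a mean of 50 or more, also those outside the 18141 by their tissue difference. Of the hsp, TIFY or ZIM, bZIP and GNAT transcripts, 10 of 14, 8 of 11, 16 of 22 and 9 of 11 were within the 18141. In that library 54.8% of all 18141 transcripts lay below their group mean. All 30 ribosomal protein transcripts (named rpl or rps, mean 50 or more) lay below it, with a median difference of -0.85 and a range of -1.51 to -0.04, although rpl5 alone was among the 200. All 5 with a calmodulin name lay below it as well, with a median of -1.29, and 3 of them were among the 200. Of 14 with a heat shock protein (hsp) name, 12 lay below it and 4 by more than 1. Of 11 with a TIFY or ZIM name, 8 lay below it, with a median of -0.41. All 3 with a thioredoxin name lay below it, with a median of -1.26. So did the 2 with a cinnamoyl-CoA reductase name, with a median of -0.86, and the 1 with a CYP78A name, at -0.23. The bZIP and GNAT families had medians closer to the group mean. Of 22 with a bZIP name, 16 (72.7%) lay below it with a median of -0.09, and of 11 with a GNAT name, 6 with a median of -0.01. All 4 with a sigma factor name lay above it, and so did the 1 with a terpene synthase name. These families were looked up after the names of the 200 were known. Over all 18141 transcripts, 679 (3.74%) lay more than 1 below their group mean in that library, and 116 of the 679 were among the 200. The relation of this library to transcript level is given above, and its part in the choice of families was not tested.

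Some of the 200 may count the same reads. Among the 200 there were 49 pairs whose differences correlated at over 0.99, in 15 sets that together held 50 transcripts, 44 of them of pattern A. The largest set had 7. Counted once per set, the 200 came to 165. In pattern A 1 library dominates the differences, so a correlation over 0.99 there says little about shared reads. The SD of the log2 ratio between the 2 levels of a pair, over the 18 libraries, ran from 0 to 0.38. The largest was that of AC212565.3 and GRMZM2G149115, whose mean levels were 13.7 times apart. One set was CaM2, rcalm (GRMZM2G004703) and GRMZM5G895362. In event 1 ear inflorescence replicate 1 these had 1496, 5619 and 1755 normalized counts, against 6637, 23581 and 7489 in replicate 3. GRMZM2G303530 and GRMZM5G808977 had the same normalized count in most libraries, for example 49.9 in event 1 ear inflorescence replicate 1. GRMZM2G044771 and GRMZM5G825324 had the same count in each of the 18 libraries, so they cannot be read as 2 separate measurements. In the other sets, shared reads cannot be told apart from shared regulation.

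Pattern B held 25 transcripts and ran against pattern A in the same library. Their median difference was 0.78 in event 1 ear inflorescence replicate 1, where 20 of the 25 had their highest level of all 18 libraries, and -0.57 in replicate 2. In ear the medians were -0.83 in event 2 replicate 1, with 23 of 25 below the group mean, and 0.89 in event 2 replicate 2, with all 25 above it. GRMZM2G125823, with an SD of 0.67, had 102.2, 134.7 and 66.1 normalized counts in event 1 ear, 48.8, 244.9 and 105.5 in event 2 and 112.5, 129.4 and 63.3 in control. In ear inflorescence it had 108.1, 30.3 and 45.9 in event 1, 60.6, 35.8 and 140.4 in event 2 and 77.1, 55.9 and 84.3 in control. Its highest value, in event 2 ear replicate 2, was 5.02 times that of replicate 1 of the same group. Pattern B held 2 transcripts with a gene name. LAZ1-6 (GRMZM2G071688) had 34.5, 139.8 and 72.8 in event 2 ear, and O10 (GRMZM2G346263), an endosperm protein that orders zein protein bodies in the kernel, had 282.1, 113.7 and 107.6 in event 1 ear inflorescence, against 43.6 to 178.1 in the 15 libraries of the other groups. The ear libraries of event 1 and control had median differences of at most 0.16 in size.

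Pattern C held 17 transcripts. The medians were -0.78 and 0.92 in event 1 ear replicates 1 and 2, -0.63 in event 2 ear replicate 1, and -0.84 and 0.59 in event 1 ear inflorescence replicates 1 and 2. The heat shock protein transcript hsp18c (GRMZM2G034157) encodes a small heat shock protein, a chaperone that holds unfolding proteins in heat. It had 723, 958 and 1189 normalized counts in event 1 ear, 507, 1384 and 1020 in event 2 and 959, 1381 and 645 in control. In ear inflorescence it had 571, 1724 and 1864 in event 1, 1526, 2196 and 1390 in event 2 and 1329, 1853 and 1289 in control. The 3 genotypes overlapped in ear, and replicates of 1 group differed by as much as 2.73 times there. Its near-identical partner GRMZM2G332512 gave 672.7, 838 and 1037 in event 1 ear and the same order in each group. The 14 transcripts with a heat shock protein name had an SD between 0.13 and 0.52, beside a median of 0.20 over all 18141. Among small heat shock proteins, hsp18a, hsp18f and hsp22 had 0.39, 0.52 and 0.20, and hsp18f was kept out of the list by its tissue difference of -1.04 (ear minus ear inflorescence, log2). The small hsp 17.2 had 0.41. Among larger chaperones, hsp82, hsp70-4, HSP90-1, hsp101 and HSP90-2 had 0.33, 0.26, 0.23, 0.21 and 0.15. The remaining ones, hsp70-5, Hsp70 and HSP60-1 (GRMZM2G458208 and GRMZM2G111477), had 0.21, 0.13, 0.21 and 0.13. Also past the tissue limit were hsp 17.2, hsp82 and GRMZM2G458208, with tissue differences of 3.29, 1.46 and -1.14. The gar2 transcript (GRMZM2G429000) had 1947, 4221 and 2332 in event 1 ear, 2201, 1672 and 1782 in event 2 and 2365, 2932 and 1790 in control.

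Pattern D held 16 transcripts, among them 5 of the 7 with the largest SD of all, and none of the 16 was led by event 1 ear inflorescence replicate 1. Its largest differences lay among replicates of control ear inflorescence, with medians of -1.10, -0.41 and 1.25 in replicates 1, 2 and 3, and of event 2 ear inflorescence, with 0.91 and -0.89 in replicates 1 and 2. All 16 were above their group mean in control replicate 3. RefSeq records were found for 13 of the 16. GRMZM2G314769 had 126.8, 309.0 and 189.8 normalized counts in event 1 ear inflorescence, 412.4, 1.16 and 54.9 in event 2 and 21.0, 47.3 and 498.5 in control. Replicates of the same group thus spanned nearly the whole range of the transcript, and the 3 genotypes overlapped. In ear it had 49.9, 98.2 and 56.2 in event 1, 47.6, 30.2 and 44.8 in event 2 and 44.5, 25.1 and 34.8 in control, a much narrower spread.

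The other leading transcripts of pattern D were likewise high in control replicate 3 and event 2 replicate 1 of ear inflorescence. GRMZM2G162755 had 85.9, 232.2 and 108.8 normalized counts in event 1 ear inflorescence, 349.1, 15.03 and 22.4 in event 2 and 15.4, 22.2 and 286.2 in control. The kin1 transcript (GRMZM2G158394) had 190.6, 1082 and 537.9 in event 1 ear inflorescence, 751, 314.5 and 182.9 in event 2 and 108.7, 179.1 and 1007 in control. Control replicate 3 was 12.9 times the next highest control replicate for GRMZM2G162755 and 5.63 times for kin1. In ear, kin1 had 323.3, 661.0 and 676.0 in event 1, 411.6, 43.6 and 102.4 in event 2 and 141.7, 212.5 and 354.7 in control. GRMZM2G700208 had 180.7, 421.8 and 244.5 in event 1 ear, 115.4, 25.7 and 64.8 in event 2 and 76.1, 73.9 and 148.9 in control. For GRMZM2G700208 each event 1 ear library was above each control ear library, and for kin1 event 1 and control overlapped. GRMZM2G004641 had 172.3, 405.4 and 285.3 in event 1 ear and 122.99, 75.2 and 81.3 in control, also without overlap, while its ear inflorescence libraries overlapped. The calmodulin-named transcript GRMZM2G444621 also belonged here, apart from the calmodulin set of pattern A, with 74.4, 21.97 and 28.3 in event 2 ear inflorescence and 33.6, 27.9 and 63.6 in control. Leaving out event 1 ear inflorescence replicate 1 kept 15 of the 16 in the list.

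Pattern E held 7 transcripts, and all 7 stayed in the list without event 1 ear inflorescence replicate 1. Their medians were -1.07 and 0.64 in event 2 ear inflorescence replicates 1 and 2. The cytochrome P450 CYP78A53 (GRMZM2G092823) belongs to the CYP78A family, whose Arabidopsis members affect organ size. It had 188.5, 220.8 and 261.1 normalized counts in event 1 ear inflorescence, 154.3, 860.3 and 515.0 in event 2 and 297.2, 380.3 and 249.6 in control. Event 2 replicate 2 was 5.57 times replicate 1. In ear it had 425.5, 253.1 and 312.0 in event 1, 618.5, 447.3 and 396.6 in event 2 and 330.3, 278.5 and 568.0 in control. The bZIP transcription factor bZIP113 (GRMZM2G445575) had 166.4, 178.8 and 59.0 in event 1 ear, 196.3, 144.2 and 69.6 in event 2 and 74.96, 80.5 and 126.7 in control. It was low in replicate 3 of both events in ear, and not in control replicate 3.

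**Figure D4:**
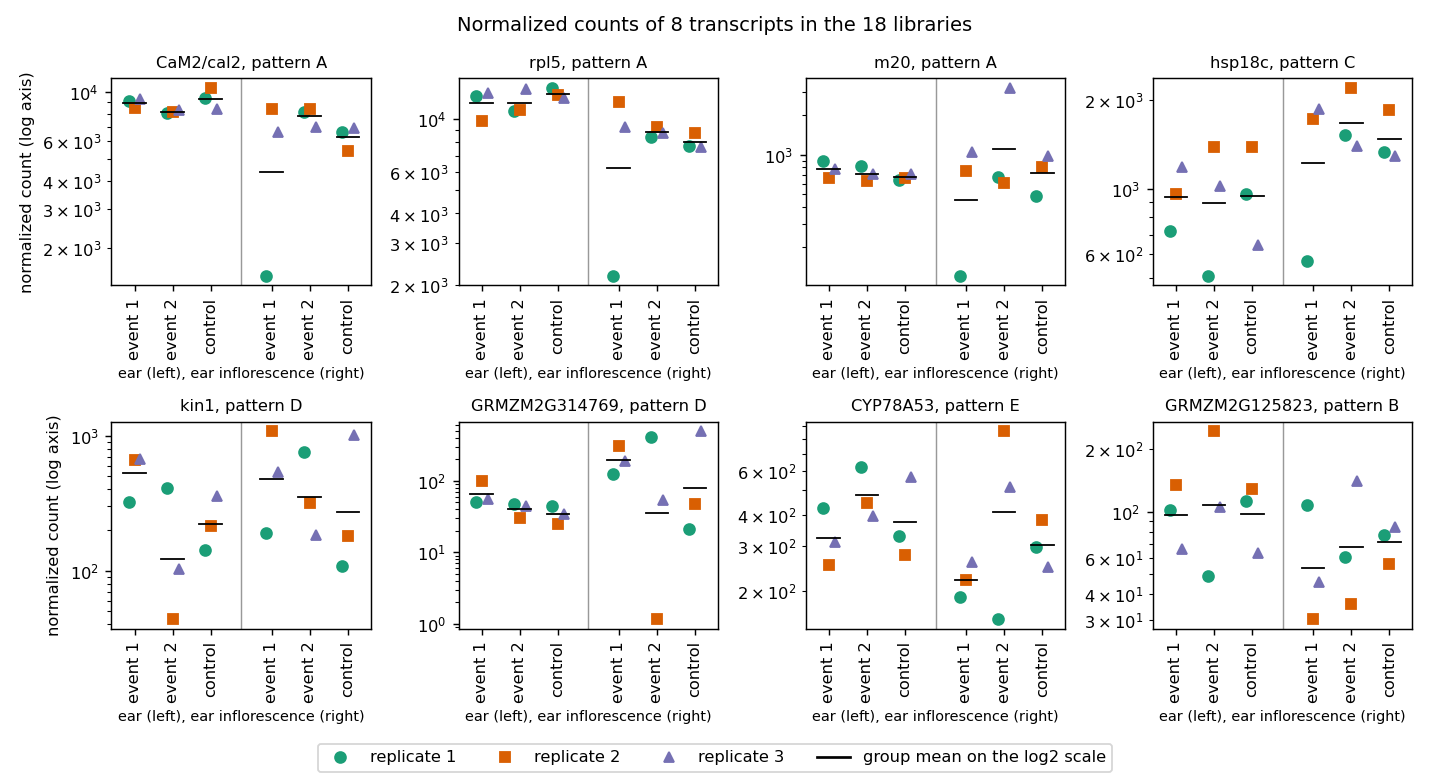
Normalized counts (log axes) of 8 of the 200 transcripts in each library, by genotype in ear (left of each panel) and ear inflorescence (right). Symbols mark replicate numbers and black bars the group means on the log2 scale. CaM2, rpl5 and m20 are low in event 1 ear inflorescence replicate 1, while kin1, GRMZM2G314769, CYP78A53 and GRMZM2G125823 spread among replicates of several groups.

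The 22 transcripts outside the patterns had their own libraries. Their differences correlated with a median of 0.01 over pairs. GRMZM2G496977 had the second largest SD of the 200, 1.36. It had 3.57, 1.26 and 137.7 normalized counts in event 1 ear, 199.8, 155.4 and 189.5 in event 2 and 67.9, 10.6 and 3.17 in control. In ear inflorescence it had 12.5, 1.90 and 6.04 in event 1, 192.0, 262.5 and 175.8 in event 2 and 52.6, 40.8 and 50.9 in control. It was thus high in all 6 event 2 libraries, low in 5 of 6 event 1 libraries, and at middle or low levels in control, with single libraries that broke the order. GRMZM2G161553 had 15.5, 13.9 and 71.7 in event 1 ear, 10.7, 159.9 and 67.2 in event 2 and 5.86, 79.2 and 8.45 in control. In ear inflorescence it had 37.4, 55.0 and 20.6 in event 1, 66.1, 17.3 and 116.2 in event 2 and 194.9, 25.1 and 30.2 in control. Its highest and lowest levels of all 18 libraries were both in replicate 1 of control, in ear inflorescence and in ear. GRMZM5G861408 had 22.4 in event 2 ear replicate 2, against 166.5 and 174.3 in replicates 1 and 3. The terpene synthase tps26 (GRMZM2G030583), of a family that makes volatile and defence compounds, was also lowest in that library, with 73.8, 22.4 and 51.2 in event 2 ear, against 45.7, 26.4 and 65.5 in control ear. The plastid sigma factor sig1 (GRMZM2G006736), which directs the plastid RNA polymerase, had 42.8, 61.5 and 60.0 in event 2 ear and 26.9, 71.3 and 23.2 in control.

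When the 18141 transcripts were ranked in each tissue alone, 79 of the 200 were in the ear list of 200 and 127 in the ear inflorescence list. Both of those lists held 19 transcripts, 9.50% of each, where a list of 200 is 1.10% of the 18141, and all 19 were among the 200. The 19 included kin1, GRMZM2G700208, GRMZM2G161553 and GRMZM2G496977. Both tissue rankings used the differences that chose the 200, so the overlap describes the list and is no separate support. The share of 1.10% also leaves out that spread changes with level. Over the 18141, the median SD was 0.25 in the lowest eighth by mean count and 0.17 in the seventh. Pattern A had a median SD of 0.19 in ear and 0.64 in ear inflorescence, and pattern D of 0.38 and 0.82. Pattern B was more variable in ear for 18 of its 25 transcripts. Over all 18141 the medians were 0.16 in ear and 0.22 in ear inflorescence.

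The rule removed the group means, so the events could still be compared with control. It also kept the transcripts with the largest spread within groups, and that spread is the error of these tests. A low number of calls is therefore partly set by the choice. It does not show that the events left these transcripts unchanged. Each event was compared with control in each tissue by limma on log2(normalized count + 1), with all 76612 identifiers and all 18 libraries, and a call needed a raw p of 0.0001 or less. None of the 200 was called in any of the 4 comparisons. The share called over all identifiers was 0.128% for event 1 in ear, 0.0444% for event 2 in ear, 0.0574% for event 1 in ear inflorescence and 0.0666% for event 2 in ear inflorescence. At a raw p under 0.05, 11 of the 200 (5.5%) passed for event 1 in ear, 5 of them higher and 6 lower, where 6.76% of all identifiers did. For event 2 in ear 2 passed (1.00%, against 3.82% of all), for event 1 in ear inflorescence 3 passed, all lower (1.5%, against 2.79%), and for event 2 in ear inflorescence 2 passed (1.00%, against 4.36%). The standard error of the log2 fold change had a median of 0.39 over the 200 and 0.21 over all 27098 past the limit on the mean, a difference that the choice of variable transcripts sets. An exact permutation test of a single transcript, two-sided with 3 libraries in each group, gives a p of 0.1 at best.

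The limma values nearest to a call were these. GRMZM2G112210 had 761.9, 156.1 and 611 normalized counts in event 1 ear and 1274, 1547 and 1326 in control, without overlap, with a log2 fold change of -1.72 ± 0.43 (SE) and a limma adjusted p of 0.19. GRMZM2G013236 had 445.7, 470.9 and 451.1 in event 1 ear and 197.9, 143.9 and 217.5 in control, also without overlap, with 1.31 ± 0.35 and a limma adjusted p of 0.24. It was quiet in event 1 ear, and its spread came from event 2 ear and control ear inflorescence, where control had 97.4, 220.6 and 340.3. GRMZM2G443180 had 18.02, 52.1 and 64.1 in event 1 ear inflorescence and 160.5, 141.8 and 101.8 in control, without overlap, with -1.72 ± 0.40 and a limma adjusted p of 0.33. Without event 1 replicate 1, its log2 fold change was -1.18 with a limma adjusted p of 0.26. GRMZM2G496977 had a log2 fold change of 3.605 ± 1.07 for event 2 in ear with a limma adjusted p of 0.93, the widest of these errors. These 4 were picked for their low p after the values were seen.

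Of the counting models on the whole reads, edgeR called more than limma. At the same threshold it called 10 of the 200 for event 1 in ear (5%, against 0.604% of all identifiers), 2 for event 2 in ear (1.00%, against 0.15%), 2 for event 1 in ear inflorescence (1.00%, against 0.0875%) and 3 for event 2 in ear inflorescence (1.5%, against 0.367%). At a raw p under 0.05 edgeR had 37 of the 200 for event 1 in ear (18.5%, against 5.64%), 24 for event 2 in ear (12%, against 3.88%), 14 for event 1 in ear inflorescence (7%, against 1.77%) and 37 for event 2 in ear inflorescence (18.5%, against 6.04%). These shares were above those of all identifiers, while those of the main limma fit were below them. That order depended on the fit and on the identifiers compared. With limma on identifiers with a mean of at least 10, event 1 in ear inflorescence had 1.5%, against 1.16% of all. With limma on only the 2 groups compared, event 2 in ear had 12%, against 3.77%. In both of these fits the other comparisons stayed below. The prior weight that edgeR gave to the shared spread was 328 degrees of freedom beside the 12 of each transcript, against 6.86 in limma. The rule chose transcripts with a large spread of their own. Whether either bears on the difference between the tools was not tested.

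The 10 calls of edgeR for event 1 in ear went in both directions. Higher in event 1 were 6, all of pattern D: kin1, GRMZM2G700208, GRMZM2G004641, GRMZM2G162755 and GRMZM2G131409, with limma log2 fold changes of 1.25, 1.48, 1.57, 1.84 and 1.08 and standard errors of 0.80, 0.72, 0.66, 0.94 and 0.49, and GRMZM2G013236. Lower in event 1 were 4, namely GRMZM2G112210, which is in no pattern, and GRMZM5G875999, GRMZM2G418194 and GRMZM2G118047 of pattern A. The limma log2 fold changes of the last 3 were -1.22, -1.17 and -1.02, with standard errors of 0.39, 0.44 and 0.40, and GRMZM2G418194 and GRMZM2G118047 belong to a set that may count the same reads. In each of the other comparisons edgeR called GRMZM2G496977. Its edgeR raw p for event 2 in ear was 2.9e-14, where its limma adjusted p was 0.93. The others called were GRMZM2G443180 for both events in ear inflorescence, GRMZM2G112210 for event 2 in ear and m20 for event 2 in ear inflorescence.

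DESeq2 gave a p for 199 of the 200 and none for GRMZM2G496977 in any comparison. At a raw p of 0.0001 or less it called 0 for event 1 in ear (0.212% of all identifiers), 0 for event 2 in ear (0.0353%), 1 for event 1 in ear inflorescence (0.0327%) and 0 for event 2 in ear inflorescence (0.0653%). At a raw p under 0.05 it had 11 (5.5%, against 4.17% of all), 4 (2.00%, against 1.69%), 3 (1.5%, against 0.73%) and 2 (1.00%, against 2.46%) in the same order of comparisons. The 1 transcript it called for event 1 in ear inflorescence was GRMZM2G443180.

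The comparison of event 1 with control in ear inflorescence depended on 1 library. Without event 1 replicate 1, limma still called none of the 200, but 73 (36.5%) had a raw p under 0.05, 68 of them higher and 5 lower, where 12.8% of all identifiers passed. Of the 68, 65 belonged to pattern A. The median log2 fold change of pattern A was 0.49 without that library and -0.20 with it. That of pattern B was -0.56 without it and -0.18 with it. The lowest adjusted p in limma was 0.096. Since most of the 200 were chosen through that library, this count describes what leaving it out does and is no result about event 1.

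**Figure D5:**
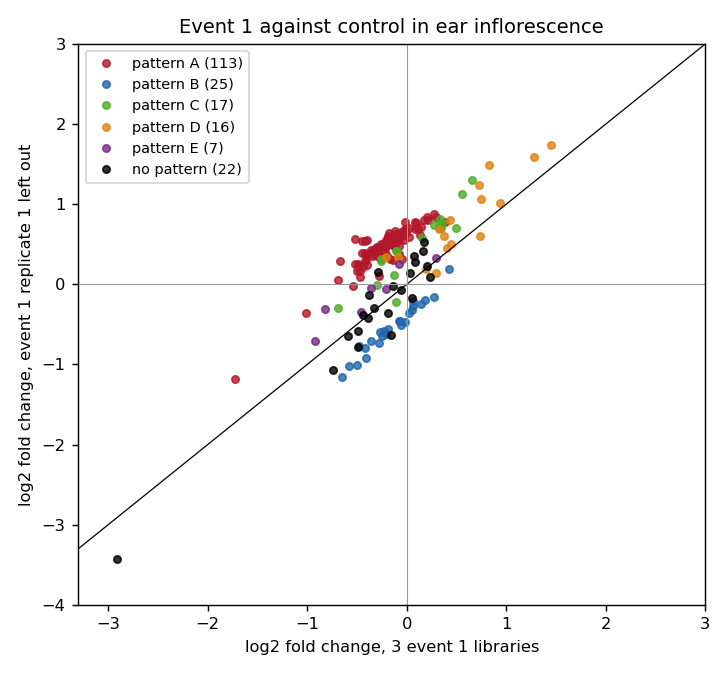
Log2 fold change of event 1 against control in ear inflorescence with all 3 event 1 libraries (horizontal axis) and without event 1 replicate 1 (vertical axis), 1 point for each of the 200 transcripts, coloured by pattern. The diagonal marks equal values. Pattern A lies above the diagonal, with a median of -0.20 across and 0.49 up, and pattern B below it.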

How the data were processed

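RNA from 18 samples was sequenced in reads of 50 bases. The authors used CASAVA 1.8.2, mapped reads with Bowtie 0.12.8 to the public B73 maize transcriptome, with up to 2 mismatches in a seed of 28 bases, ignored reads that mapped to more than 10 transcripts, and normalized the counts with DESeq. The deposited values are this signal (normalized counts). Dividing by each library's scale factor gave whole numbers for 740849 of 740849 low values tested (100%, within 0.0051), so the reads per transcript were recovered. Ratios to counting error cover counting error only. The ± values are limma standard errors, which come from the spread among libraries. Reads came from separate biological replicates, and the labels give no sequencing batch.

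The transcripts and lists were chosen with earlier results of these data known. Differences from group means were computed on log2(value + 1). Patterns came from average-linkage clustering of correlations at a distance of 0.5. Events were tested with limma 3.58.1 (R 4.3.3, trend, 6 group means, Benjamini-Hochberg adjustment over all identifiers). edgeR 4.0.16 and DESeq2 1.42.0 on the whole reads were alternatives, with other pseudocounts, filters, scalings, a replicate block and each library left out. Transcripts named are the 10 with the largest SD, for each of the 4 libraries that lead most, up to 5 with a gene name and the largest SD, those called, and the 3 on either side of the limit. Transcripts outside this rule, also named, were chosen after their values were seen. Functional word lists needed gene descriptions, which the name table used here does not give. Matched by symbol alone, they held 1 transcript, TIFY12. Gene names were taken from RefSeq (assembly Zm-B73-REFERENCE-NAM-5.0), where 18629 of the 76612 identifiers were found among symbols and synonyms. No coordinates are given, since the builds differ. Scripts were tested on simulated data, and Python 3.11.15, numpy 2.4.6, pandas 2.3.3, scipy 1.17.1 and matplotlib 3.10.9 were used.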

Additional observations from a re-analysis of the deposited data

How the results depend on the processing

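Which transcripts are the 200 depended on the limits more than on the scale. Of the 200, 194 stayed with a pseudocount of 0.1, 147 with 10, 176 with TMM scaling, 155 with quantile normalization and 160 with the replicate block. With a minimum mean of 10 only 18 stayed and with 200 only 79, 89 with a tissue limit of 0.5, 12 without that limit, and 79 with the median absolute difference. From ear alone 79 stayed and from ear inflorescence alone 127. Leaving out 1 library at a time kept 87 (without event 1 ear inflorescence replicate 1) to 185, and leaving out that library and event 2 ear replicate 2, an alternative chosen after seeing the data, kept 77. Event 1 ear inflorescence replicate 1 led 114 to 181 transcripts under the other settings tried. Where it was left out, also after seeing the data, the largest count was 38. The counts of 0 called by limma in the 4 comparisons held under each limma alternative, the libraries left out in turn (0 to 0) and the replicate block (0 called in each) included. edgeR called 10, 2, 2 and 3, each a larger share than over all identifiers, a difference from limma whose source was not tested. DESeq2, with no p for GRMZM2G496977, called 1 for event 1 in ear inflorescence and 0 elsewhere. At a raw p under 0.05 the 11, 2, 3 and 2 transcripts became 15, 24, 3 and 18 when only the 2 groups compared were fitted (7.5%, 12%, 1.5% and 9%, against 9.40%, 3.77%, 2.13% and 9.20% of all identifiers). With 1 library left out they ranged over 3 to 12 for event 1 in ear (3 without event 1 replicate 2, 1.5% against 5.70%), 1 to 9 for event 2 in ear (9 without event 2 replicate 1, 4.50% against 5.98%), 1 to 73 for event 1 in ear inflorescence (73 without event 1 replicate 1, 36.5% against 12.8% of all, and 10 without control replicate 3, 5% against 4.82%) and 2 to 6 for event 2 in ear inflorescence (6 without event 2 replicate 1, 3% against 4.90%). The replicate numbers carry no stated pairing: samples with the same number had a median correlation of 0.02 over 45 pairs, against -0.02 over 90 pairs with different numbers. Counting error was at most 0.33 on the log2 scale, so depth limits the transcripts near the minimum mean most.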
